A study of Homo sapiens with 12 samples.

Results

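The serum amyloid A genes SAA1, SAA2 and SAA4 and the readthrough gene SAA2-SAA4, whose transcript joins exons of SAA2 to exons of SAA4, were followed in MDA-MB-231 cells given a miR-145-5p mimic with or without silencing of Ago2. They are 4 of the 18253 genes with a usable signal, and were measured by 11 probes, assigned through the RefSeq transcript that each probe carries: 3 for SAA1, 4 for SAA2, 2 for SAA4 and 2 for SAA2-SAA4. The set was chosen on the difference between the mimic's effects with and without Ago2 silencing, a contrast in which the readthrough is 1 of 2 genes that passed over all genes. The values of SAA2-SAA4 are therefore given as a description with no test, and SAA1, SAA2 and SAA4, which share exons or nearly identical sequence with it, are not independent of that choice. MDA-MB-231 is an established line of triple-negative breast cancer cells. Each of the 4 groups held 3 arrays, labelled as biological triplicates. In cntrl, cells received control oligonucleotides in place of both the mimic and the siRNA. In mimic145 they received the mimic, a transfected precursor used at 5 nM. In sirnaAGO2 they received a Dicer-substrate siRNA (DsiRNA) against AGO2, used at 500 pM for 72 h, and in sirnaAGO2+mimic145 they received both. All groups were thus transfected cells, and no untransfected cells were profiled. Values are from whole cultures, in which fewer cells that express a gene and less RNA per cell cannot be told apart.

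Serum amyloid A proteins are small apolipoproteins carried on high-density lipoprotein. SAA1 and SAA2 encode the acute phase forms, which the liver and many other cells make in response to interleukin-1, interleukin-6 and tumor necrosis factor through NF-κB, STAT3 and C/EBP factors, and SAA4 encodes the constitutive form, which responds little to such signals. The genes lie side by side on chromosome 11, where transcription that runs past the end of SAA2 gives the joined SAA2-SAA4 transcript. A miRNA is loaded into an Argonaute protein and pairs through its seed with sites in target transcripts, and Ago2 is the human Argonaute that can also cut its target.

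The transfected mimic supplies the mature strand miR-145-5p, shown because its seed sets which transcripts it can pair with (RefSeq, GRCh38.p14, chr5:149430661-149430683, plus strand). The seed, bases 2 to 8, is in capitals.
hsa-miR-145-5p: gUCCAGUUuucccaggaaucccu
A full seed match in a transcript would read AACUGGA. The transcript sequences of the SAA genes were not used here, so whether they hold such a site was not analysed.

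The silencing itself was seen on AGO2. Its normalized log2 signal, a mean over 19 probes, was 9.21, 9.14 and 9.01 in the cntrl arrays of replicates 1, 2 and 3 and 8.35, 8.44 and 8.42 in the sirnaAGO2 arrays, so the groups did not overlap. The difference was -0.71 (SE 0.08, adjusted p = 0.00491 by limma), which left 61.0% of the signal. Of the markers of this line, all 8 mesenchymal genes (VIM, CD44, SPARC, FN1, MSN, AXL, CAV1, EGFR) had signal above background, but so did 7 of 8 luminal and hormone receptor genes, PGR being the exception, so that detection alone did not set the line apart. Over the whole array 18253 of the 20708 genes with a probe had such signal, so both counts are near those of genes at large. With the mimic in control cells EPCAM, an epithelial adhesion molecule, was lower (-0.83, adjusted p = 9.0e-04 by limma), and KRT18, a keratin (0.50, adjusted p = 6.4e-04), and FN1, fibronectin (0.45, adjusted p = 0.0264), were higher. In silenced cells SPARC was higher (0.42, adjusted p = 0.0413), while EPCAM differed by -0.40 (adjusted p = 0.0508). In mimic cells silencing went with less FN1 (-0.87), KRT8 (-0.58) and KRT18 (-0.57). Over all genes 11% passed as lower and 11.6% as higher with the mimic in control cells, and 3.03% and 4.25% in silenced cells. For silencing the shares were 1.69% and 0.888% without the mimic and 2.44% and 1.87% with it. Of 10 genes of hepatocytes, the main source of circulating serum amyloid A, all were measured and none passed in any comparison. With so few genes this is not read as a result. The array mean over the 10 was 7.36 to 7.55 in cntrl and 7.38 to 7.58 in mimic145. A gene counts as measured with only 1 kept probe. The kept probes of these genes ran from 2 of 15 for ALB to 2 of 3 for APOA1, so expression of hepatocyte genes is not shown by this. Of 6 measured macrophage genes, CD14 was higher with the mimic in both arms (0.37 and 1.01) and CSF1R in the silenced arm (0.33). Of 5 fibroblast genes LUM was lower in control cells (-1.49), DCN higher in both arms (0.31 and 0.34) and PDGFRB higher in the silenced arm (0.48). CD14 and LUM each rest on 1 kept probe. Neither LUM nor DCN had a probe well above background on all 12 arrays. The LUM mean was 6.28 in cntrl and 4.79 in mimic145, so its difference rests partly on signal near background. The part of any of these markers in the SAA results was not tested. The share of an array's spots that were well above background ran from 60.5% to 77.3%, with 67.6% to 73.4% for cntrl and 61.6% to 77.3% for mimic145. The 2 arrays of a slide had the same replicate number and the same siRNA, and differed in the mimic. The array with the mimic was always at the second position, so that position and mimic cannot be told apart, and no slide held both siRNA arms.

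The readthrough had the lowest signal in mimic145, and its mean was lower with the mimic in both arms. Its log2 signal was 8.31, 8.20 and 8.90 in cntrl, 6.48, 6.60 and 7.18 in mimic145, 8.05, 8.14 and 8.74 in sirnaAGO2, and 7.54, 7.33 and 8.15 in sirnaAGO2+mimic145, in the order of replicates 1, 2 and 3. All 3 mimic145 arrays lay below every array of the other groups, while the groups sirnaAGO2 and sirnaAGO2+mimic145 overlapped, and the third replicate was the highest in each group. Within replicates, where both arrays shared a slide, the log2 differences between arrays with and without the mimic were -1.83, -1.60 and -1.72 in control cells, with a mean of -1.72 and 30.4% of the signal left. In silenced cells the same differences were -0.51, -0.81 and -0.59, with a mean of -0.64 and 64.3% of the signal left. Of the 18253 genes, 17 had a more negative difference in control cells and 274 in silenced cells. With normexp background correction the means were -1.13 and -0.39.

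**Figure D1:**
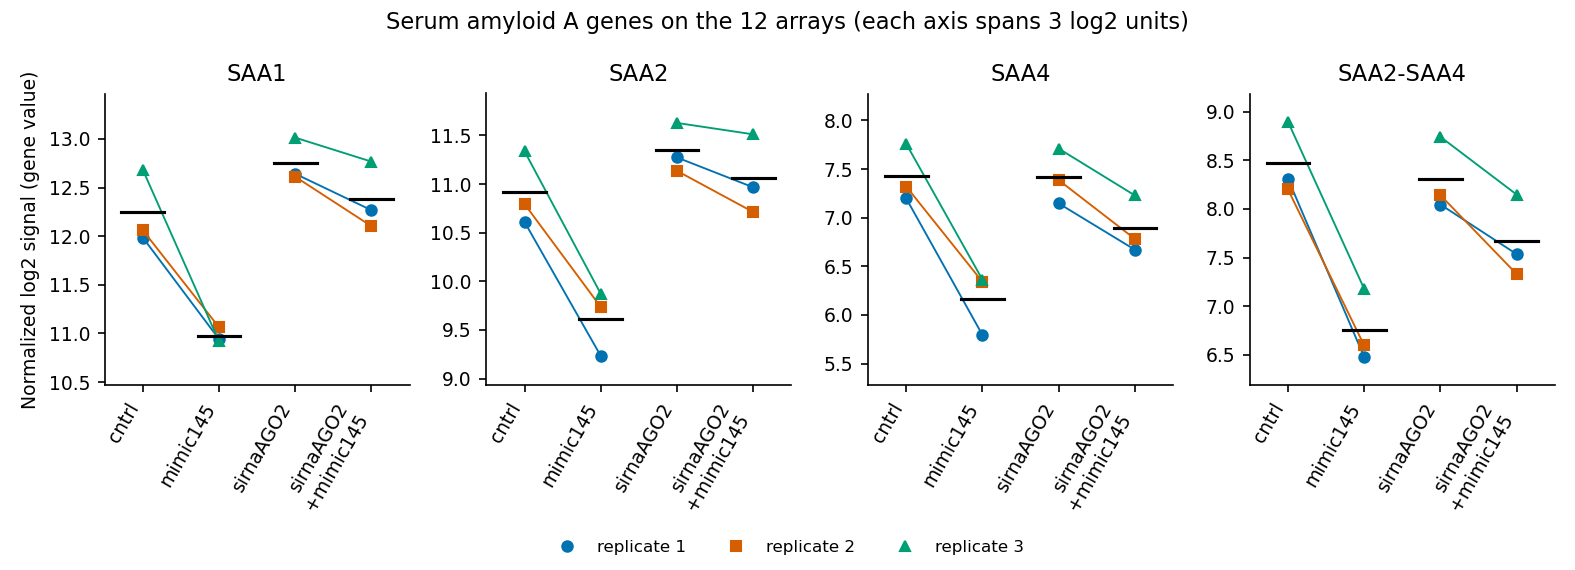
Gene values (normalized log2 signal, mean over the probes of a gene) of SAA1, SAA2, SAA4 and SAA2-SAA4 on each of the 12 arrays. Points are arrays, colored and shaped by replicate, lines join the 2 arrays of a slide, and black bars are means of 3 arrays. The mimic145 arrays lie below the cntrl arrays for all 4 genes, and the differences are smaller in the silenced arm.

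SAA1, the main acute phase form, stood at 11.99, 12.06 and 12.68 in cntrl and at 10.94, 11.06 and 10.92 in mimic145. It stood at 12.64, 12.61 and 13.01 in sirnaAGO2 and at 12.27, 12.10 and 12.77 in sirnaAGO2+mimic145. The mimic145 arrays were the lowest and did not overlap any other group, and the sirnaAGO2 mean was the highest. SAA2, the other acute phase form, followed the same order. Its signal was 10.61, 10.80 and 11.34 in cntrl, 9.23, 9.74 and 9.87 in mimic145, 11.27, 11.14 and 11.63 in sirnaAGO2 and 10.97, 10.71 and 11.51 in sirnaAGO2+mimic145. For both genes the arrays with the mimic and the siRNA together overlapped those of cntrl. SAA4, the constitutive form, was at 7.20, 7.32 and 7.76 in cntrl, 5.79, 6.34 and 6.36 in mimic145, 7.15, 7.39 and 7.71 in sirnaAGO2 and 6.67, 6.78 and 7.23 in sirnaAGO2+mimic145. Here cntrl and sirnaAGO2 overlapped over nearly their whole range, mimic145 lay below all other arrays, and of the double transfection only the third replicate reached the range of cntrl and sirnaAGO2.

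In control cells the mimic lowered the tested members by similar amounts. SAA1 fell by 1.27 on the log2 scale (SE 0.15, adjusted p = 6.4e-04 by limma), which left 41.5% of its signal. SAA2 fell by 1.30 (SE 0.14, adjusted p = 4.6e-04) and SAA4 fell by 1.26 (SE 0.09, adjusted p = 1.0e-04). Both probes of SAA4 were well above background on all 3 cntrl arrays but on only 2 and 1 of the 3 mimic145 arrays, so that the size and error of its fall rest partly on signal near background. All 3 thus passed, where 11% of all genes passed as lower and 11.6% as higher, and each was lower in 3 of 3 replicate pairs. In exact permutation tests of 3 arrays against 3, two-sided, the groups were fully separated for each gene (p = 0.1, the smallest that this design allows). The share of all genes or probes that separate, or agree in sign in every pair, was not counted for any comparison. The size of the fall varied most for SAA1, whose pair differed by -1.76 in replicate 3 and by -1.04 in replicate 1 (SD of the 3 pairs 0.43), against an SD of 0.21 for SAA2 and 0.24 for SAA4. With normexp the difference of SAA4 was -0.69 and with the median over probes that of SAA2 was -0.85, while both still passed. These falls passed under each alternative that could be run for the gene except the paired t-test of the methods, which after Benjamini-Hochberg adjustment passed no gene of the array. The filter that required probes to be above background on every array left no probe of SAA4.

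The single probes moved the same way. All 11 were lower with the mimic in every replicate pair of control cells, by 0.59 to 2.41, and all 9 probes of SAA1, SAA2 and SAA4 passed when adjusted over 153960 probes (adjusted p from 4.4e-04 to 0.0146 by limma), where 6.75% of all probes passed as lower. Without the arrays of replicate 1 only 3 of the 9 passed, and without those of replicate 3 only 5. The probes of a gene were not alike in size. Within SAA2, A_33_P3408913, which carries the transcript NM_001127380, was at 6.82, 6.87 and 7.66 in cntrl and at 3.84, 5.02 and 5.25 in mimic145. It was well above background on 1 of the 3 mimic145 arrays, so its difference of -2.41 (SE 0.29) rests partly on signal near background. The other 3 SAA2 probes carry NM_030754 and were well above background on all 12 arrays. Of these, A_37_P210517 changed least, from 9.03, 9.23 and 9.14 in cntrl to 8.24, 8.82 and 8.58 in mimic145, a difference of -0.59 (SE 0.12). In SAA1, A_37_P210518, well above background on 2 of 3 mimic145 arrays, differed by -1.72 (SE 0.20), against -1.01 and -1.08 for the other pair of probes. In SAA4, A_23_P87238, well above background on 2 of 3 mimic145 arrays, differed by -1.64 (SE 0.13) and A_37_P201412, well above background on 1 of 3 mimic145 arrays, by -0.88 (SE 0.13). Both readthrough probes were lower by similar amounts, -1.81 (SE 0.16) for A_37_P201415, above background on all 3 mimic145 arrays, and -1.63 (SE 0.10) for A_37_P425123, above background on 2 of them. Where probes lie on each transcript was not analysed here, and SAA1 and SAA2 are so alike in sequence that signal from one gene on the probes of the other was not tested.

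**Figure D2:**
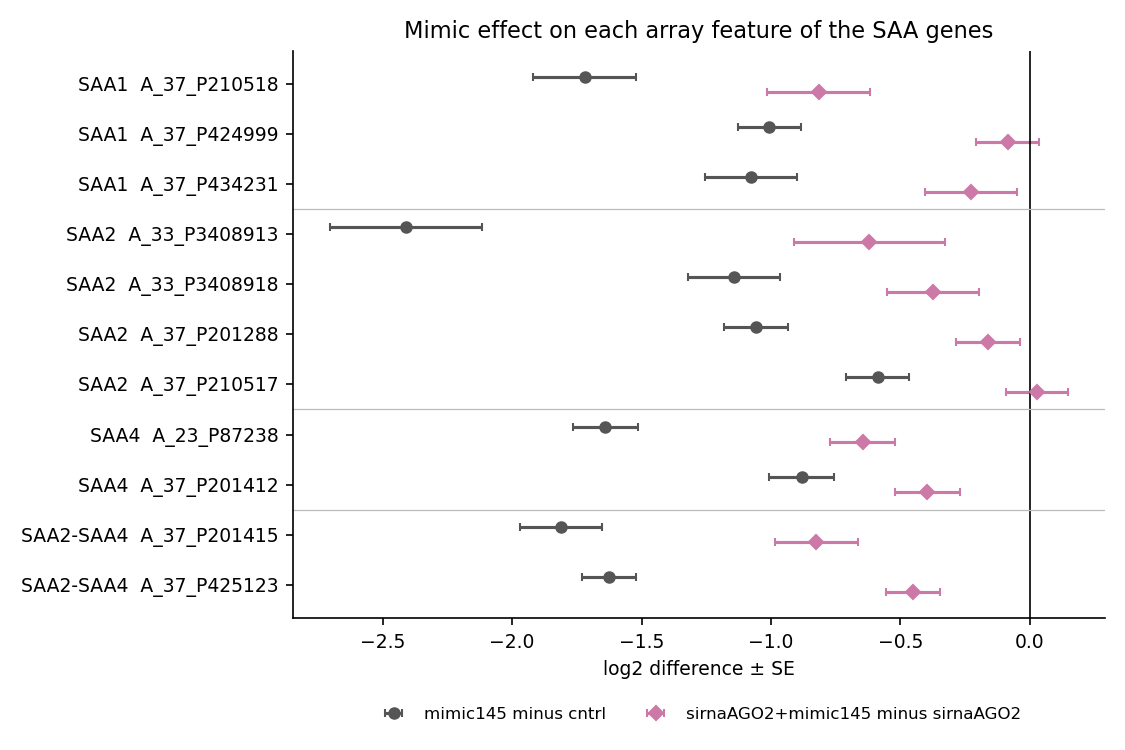
Log2 difference ± SE (limma, 3 arrays a group) between cells with and without the mimic, for each of the 11 probes, in control cells (circles) and in Ago2-silenced cells (diamonds). Every probe lies further from 0 in control cells, from -0.59 to -2.41, than in silenced cells, from 0.03 to -0.83.

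In Ago2-silenced cells the difference between cells with and without the mimic was closer to 0 for every member. SAA4 fell by 0.52 (SE 0.09, adjusted p = 0.0199 by limma), with 69.7% of its signal left, and by normexp the difference was -0.29 (adjusted p = 0.0174). SAA1 differed by -0.38 (95% confidence interval -0.71 to -0.05, adjusted p = 0.131) and SAA2 by -0.28 (-0.59 to 0.03, adjusted p = 0.211). Thus 1 of the 3 tested members passed as lower, where 3.03% of all genes passed as lower and 4.25% as higher, although SAA1, SAA2 and SAA4 were each lower in 3 of 3 pairs. The groups overlapped for each (two-sided exact permutation tests, p = 0.3 for SAA1, 0.4 for SAA2 and 0.2 for SAA4). The call of SAA4 was not firm. It was lost without the replicate block (adjusted p = 0.287), with only the 6 arrays compared (0.115), with the slide as a random block (0.0663), without the arrays of any replicate number (0.0770 to 0.187) and without any 1 of 5 arrays (sirnaAGO2 replicates 1, 2 and 3 and sirnaAGO2+mimic145 replicates 2 and 3, 0.0616 to 0.0965). SAA1 passed when mimic145 replicate 3, which is no part of this comparison but shares the estimate of the spread, was left out (0.0447). Of the 9 probes, 1 passed (3 at an unadjusted p under 0.05; A_23_P87238 of SAA4, -0.65, adjusted p = 0.0471), against 0.774% of all probes as lower, and 8 of the 11 probes were lower in all 3 pairs. A_37_P210517 of SAA2 showed no fall, with pair differences of -0.09, 0.17 and 0.00.

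After Ago2 silencing without the mimic no tested member passed. SAA1 was higher in 3 of 3 pairs, by 0.66, 0.55 and 0.33, and SAA2 by 0.66, 0.34 and 0.29. In SAA4 the pairs differed by -0.05, 0.07 and -0.05, and in the readthrough by -0.26, -0.06 and -0.16. The fitted differences were 0.51 (SE 0.15, adjusted p = 0.104 by limma) for SAA1, 0.43 (SE 0.14, adjusted p = 0.139) for SAA2 and -0.01 (SE 0.09, adjusted p = 0.959) for SAA4, and -0.16 (SE 0.08) for SAA2-SAA4. Of all genes, 1.69% passed as lower and 0.888% as higher. Before adjustment SAA1 and SAA2 were under 0.05 in limma (0.00654 and 0.0121). The calls of the acute phase forms depended on the processing: SAA2 passed with normexp background correction (0.0361), in the authors' table (0.0285) and with a stricter filter that required each probe to be above background on every array (0.0204), and SAA1 with the median over its probes (0.0451) and without mimic145 replicate 3 (0.0336). All 7 probes of SAA1 and SAA2 were higher after silencing, by 0.16 to 0.60, 6 of them in all 3 pairs, while the 4 probes of SAA4 and SAA2-SAA4 ran from -0.20 to 0.15. Whether SAA1 and SAA2 differ from SAA4 in their response to silencing was not tested. Because each arm was run on its own 3 slides, silencing and slide can be compared only between slides.

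In cells with the mimic, silencing was accompanied by higher signal of all members. SAA1 was higher in sirnaAGO2+mimic145 than in mimic145 by 1.40 (SE 0.15, adjusted p = 0.00324 by limma), SAA2 by 1.45 (SE 0.14, adjusted p = 0.00242) and SAA4 by 0.73 (SE 0.09, adjusted p = 0.00742). All 3 passed as higher, against 1.87% of all genes, with 2.44% passing as lower. The SAA4 probes A_23_P87238 and A_37_P201412 were well above background on only 2 and 1 of the 3 mimic145 arrays. The SAA2 probe A_33_P3408913 was so on 1. The size and error of these differences, most of all for SAA4, thus rest partly on signal near background. The filter requiring probes above background on every array left no probe of SAA4. The groups did not overlap, and with 3 arrays against 3 an exact permutation test gives p = 0.1 for each. By normexp the difference of SAA4 was 0.40 (adjusted p = 0.00583 by limma). SAA2-SAA4 was higher by 1.06, 0.73 and 0.97 in the replicate pairs, a mean of 0.92. All 11 probes were higher in every pair, by 0.64 to 1.95, and 8 of the 9 tested probes passed, against 0.61% of all probes as higher. The exception was A_37_P201412 of SAA4 (adjusted p = 0.0534 by limma). Without the replicate block 4 of the 9 passed, and none did without the arrays of replicate 1, 2 or 3. With only the 6 arrays of this comparison in the fit, the adjusted p was 0.212 for SAA1 and SAA2 and 0.222 for SAA4, without the replicate block SAA4 did not pass (0.179), and leaving out all arrays of a replicate number ended the call of SAA1 each time (0.0515 to 0.135) and those of SAA2 and SAA4 without replicate 1 or 3 (0.102 to 0.196). This comparison shares the mimic145 arrays with that of mimic145 and cntrl, so the size of both rests in part on the same 3 arrays. Silencing here is also compared only between slides, which the fit with the replicate block does not take into account. With the slide as a random block instead, SAA1 (SE 0.21, adjusted p = 0.0155 by limma) and SAA2 (0.0182) passed and SAA4 did not (0.146). Over all genes that fit called 90, against 788 with the replicate block.

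**Figure D3:**
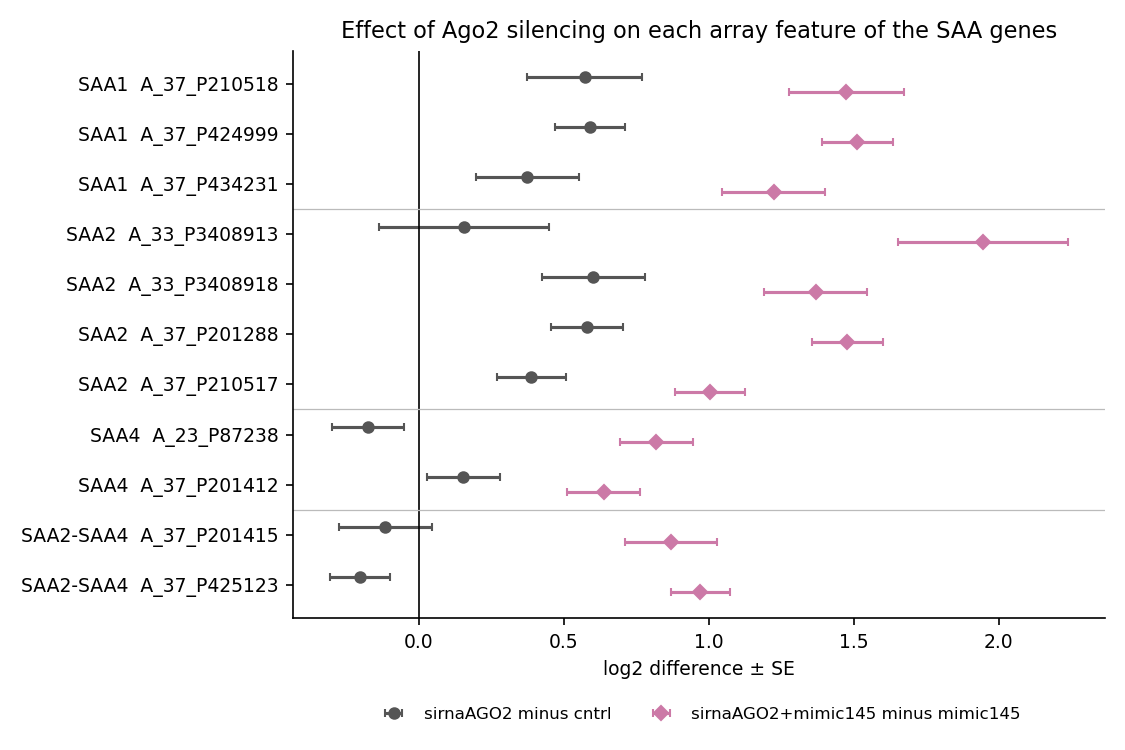
Log2 difference ± SE (limma, 3 arrays a group) between Ago2-silenced cells and cells with control siRNA, for each of the 11 probes, without the mimic (circles) and with the mimic (diamonds). Without the mimic the probes of SAA1 and SAA2 lie from 0.16 to 0.60 and those of SAA4 and SAA2-SAA4 from -0.20 to 0.15. With the mimic every probe lies at 0.64 or above.

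The difference between the mimic's effects in silenced and control cells, on which the set was chosen, was positive for all members. It was 1.08 (SE 0.11) for SAA2-SAA4, with replicate values of 1.32, 0.79 and 1.12. The readthrough was chosen for passing this contrast, so its pass is not read as a result. With outlier spots kept, or without the replicate block, no gene of the array passed here. SAA4 had a difference of 0.74 (SE 0.13), with replicate values of 0.93, 0.38 and 0.92. SAA2 had a difference of 1.02 (95% confidence interval 0.58 to 1.46, adjusted p = 0.0817 by limma) and SAA1 one of 0.89 (0.43 to 1.36, adjusted p = 0.0996), and for SAA4 the adjusted p was 0.0778. None of these 3 passed, where 0.011% of all genes passed, so that a difference between the arms was not established for SAA1, SAA2 or SAA4, although all 3 replicates gave each a positive value. With normexp the difference of SAA4 was 0.40, and without the arrays of replicate 3 that of SAA1 was 0.58. SAA2 passed with the stricter filter on dim probes (0.76, adjusted p = 0.0427) and where eBayes followed the intensity trend (adjusted p = 0.0467). As a share of the mimic's log2 difference in control cells, the difference in silenced cells was 21.7% for SAA2, 29.7% for SAA1, 37.1% for SAA2-SAA4 and 41.3% for SAA4. In single replicates the share ran from 8.01% to 40.0% for SAA2, 14.0% to 51.0% for SAA1, 27.8% to 50.5% for SAA2-SAA4 and 33.9% to 61.7% for SAA4, so the order of the genes is within the spread between replicates. AGO2 itself was higher with the mimic in control cells by 0.28 (SE 0.08, adjusted p = 0.0298) and differed by -0.06 (adjusted p = 0.607) in silenced cells. In cells with the mimic, silencing left 48.1% of the AGO2 signal.

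The gene values of the members moved together across arrays. Across the 12 arrays Pearson's r of the gene values was 0.98 between SAA1 and SAA2 and 0.97 between SAA4 and SAA2-SAA4, against 0.86 to 0.90 between a gene of the first pair and one of the second. With each group's mean taken out, r was 0.79 to 0.91 for all 6 pairs of members. Replicate 3 was the highest of the 3 in every group for SAA2, SAA4 and SAA2-SAA4, and in all but mimic145 for SAA1. These correlations are descriptions, since the arrays share groups and replicate numbers and the genes share sequence. Outside the family, among 13328 genes with at least 3 kept probes, the genes nearest to SAA1 were NDFIP1 (r = 0.97), NME7 (0.95) and GNPNAT1 (0.94), and those nearest to SAA2 were NDFIP1 (0.98), UFSP2 (0.95) and TIMMDC1 (0.95). Those nearest to SAA4 were CSF2 (0.96), the cytokine GM-CSF, PRXL2A (0.96) and AKR1B1 (0.96), an aldose reductase, and those nearest to SAA2-SAA4 were HSD17B4 (0.98), a peroxisomal enzyme of fatty acid oxidation, CRYZ (0.96) and RIN2 (0.96). In control cells the difference with the mimic was -0.29 for NDFIP1, an adaptor of ubiquitin ligases, -0.90 for HSD17B4, -1.03 for CSF2 and -1.16 for AKR1B1.

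The bases before the start of SAA4 are shown because this start lies within the span of the readthrough gene in the same annotation. From which start the SAA4 signal came was not analysed. They are from RefSeq (GRCh38.p14, chr11:18236803-18237052, minus strand), the 250 bases before the start, 35.6% of them G or C. SAA4 was the 1 of 4 members with an entry. Capitals mark matches to TTNNGCAA on either strand, a loose form of the C/EBP site.
SAA4 upstream: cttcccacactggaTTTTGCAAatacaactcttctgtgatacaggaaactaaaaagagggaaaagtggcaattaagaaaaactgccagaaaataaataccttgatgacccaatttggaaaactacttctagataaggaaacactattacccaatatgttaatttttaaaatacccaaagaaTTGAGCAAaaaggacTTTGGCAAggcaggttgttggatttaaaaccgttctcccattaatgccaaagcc
There were 3 such matches, beginning 236, 69 and 54 bases before the start. At least 1 match was held by 9.05% and at least 3 by 0.0541% of 35116 promoters over the same 250 bases. The letters were chosen with this sequence in view, and a match is no evidence of binding. No match was found to the stricter C/EBP letters TTGCGCAA (0.131% of promoters) or to the NF-κB motif of the immunoglobulin kappa enhancer, as it is (0.179%) or with its 3 inner bases free (5.67%), each searched on both strands.

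The neighbours of the SAA genes on chromosome 11 differed by at most 0.42 with the mimic. Of 12 genes within 250 kb, 10 were measured. In control cells 5 of them were lower with the mimic and none higher, where 11% of all genes passed as lower and 11.6% as higher, with a median difference of -0.25 against 0.01 for all genes. These were HPS5 (-0.42, adjusted p = 0.00736 by limma), which serves the sorting of lysosome-related organelles and is the neighbour of SAA1, LDHC (-0.41), TSG101 (-0.40), a subunit of the ESCRT machinery, LDHA (-0.28), a lactate dehydrogenase, and GTF2H1 (-0.27), a subunit of TFIIH. LDHC was measured by only 2 of its 9 probes, of which 1 was well above background on all 12 arrays. All 5 genes lie on the SAA1 side of the cluster, where LDHAL6A did not pass (-0.23, adjusted p = 0.136 by limma). On the other side TPH1 differed by 0.09, SAAL1 by 0.07 and SERGEF by 0.01. The sides were compared after the values were seen, and a difference between them was not tested. SAA3P, a pseudogene of the family, did not pass, with -0.11 in control cells and 0.13 in silenced cells. In silenced cells none of the 10 passed in either direction, where 3.03% of all genes passed as lower and 4.25% as higher. At an unadjusted p under 0.05 (limma) there were 5, against 5262 of all 18253 genes. After silencing in mimic cells HPS5 was higher (0.36, adjusted p = 0.0489 by limma).

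Among other acute phase proteins, 21 of 24 genes were measured, and in control cells 3 were lower and 1 higher with the mimic, beside 11% and 11.6% of all genes. C3, the central complement component, fell by 1.53 (SE 0.11, adjusted p = 9.3e-05 by limma) and LCN2, an iron-carrier-binding protein of innate immunity, fell by 1.51 (SE 0.11, adjusted p = 1.0e-04). SERPINA1, alpha-1 antitrypsin, fell by 0.41 (adjusted p = 0.00237). PTX3, a pentraxin made at sites of inflammation, rose by 1.18 (SE 0.11, adjusted p = 2.8e-04). In silenced cells C3 fell by 0.76 (adjusted p = 0.0117), SERPINA3 fell by 0.64 (adjusted p = 0.0445) and LCN2 fell by 0.53 (adjusted p = 0.0334), and none rose. After silencing alone C3 fell by 0.72 (adjusted p = 0.0175). In mimic cells silencing went with more LCN2 (0.52, adjusted p = 0.0406) and less PTX3 (-0.83, adjusted p = 0.00848). No gene of this list passed for the difference between the arms, where 0.011% of all genes passed. At an unadjusted p under 0.05 (limma) there were 4, against 3061 of all 18253 genes. The difference between the arms was 0.99 for LCN2 (adjusted p = 0.0654 by limma), -0.92 for PTX3 (0.0766) and 0.77 for C3 (0.0830). The median over the list was -0.04 in control cells and 0.10 in silenced cells, against 0.01 and 0.02 for all genes.

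**Figure D4:**
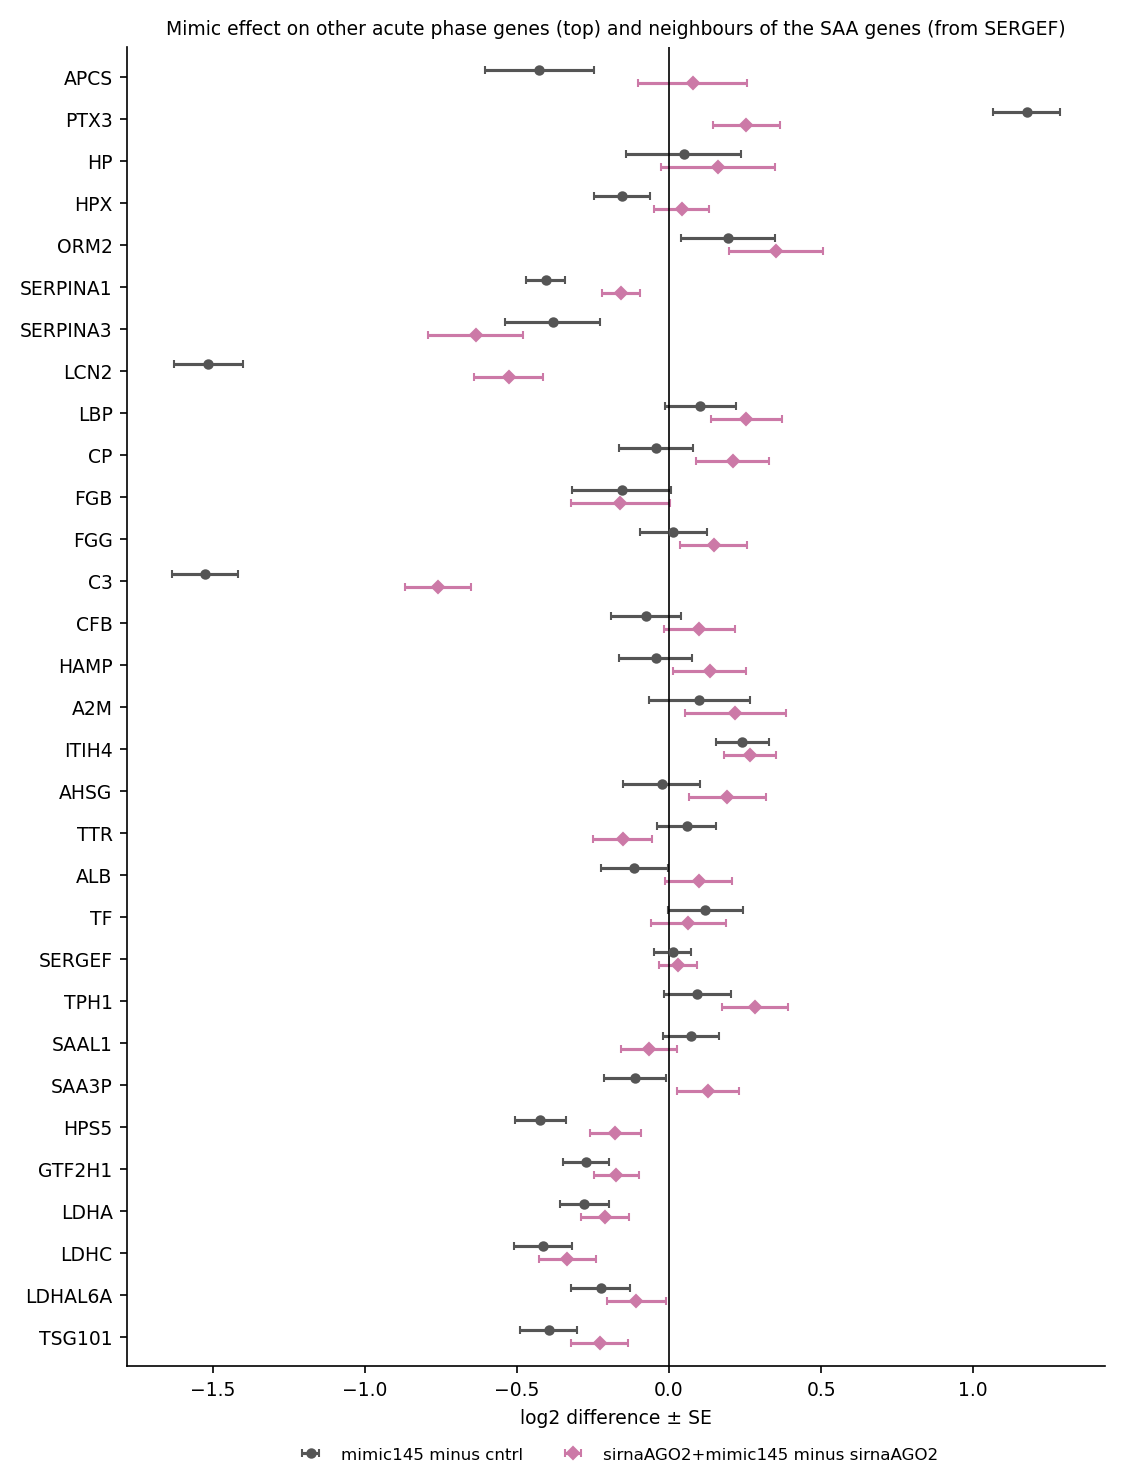
Log2 difference ± SE (limma, 3 arrays a group) between cells with and without the mimic for the 21 measured acute phase genes, from APCS to TF, and the 10 measured neighbours of the SAA genes, from SERGEF to TSG101, in control cells (circles) and Ago2-silenced cells (diamonds). C3 and LCN2 lie furthest below 0, at -1.53 and -1.51 in control cells, and PTX3 furthest above, at 1.18.

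Of 19 cytokines and receptors that drive or modulate SAA expression, all were measured, and in control cells 3 were lower and 3 higher with the mimic, beside 11% and 11.6% of all genes. IL1R1, the receptor of interleukin-1, fell by 1.08 (SE 0.14, adjusted p = 0.00107 by limma), OSMR, the oncostatin M receptor, fell by 0.56 (adjusted p = 0.00429) and IL1RN, the interleukin-1 receptor antagonist, fell by 0.55 (adjusted p = 0.00161). The ligands IL6 (0.40, adjusted p = 0.0192) and TNF (0.39, adjusted p = 0.00750) and the receptor LIFR (0.40, adjusted p = 0.0156) rose. In silenced cells IL1R1 fell by 0.56 (adjusted p = 0.0472), and TNF (0.49, adjusted p = 0.0142) and IL22RA1 (0.40, adjusted p = 0.0326) rose. Silencing alone lowered IL1RN (-0.66), IL22RA1 (-0.51) and NR3C1 (-0.31), the glucocorticoid receptor, with adjusted p of 0.00809, 0.0232 and 0.0374. Silencing in mimic cells raised TNF (0.35, adjusted p = 0.0405). None of the 19 passed for the difference between the arms, where 0.011% of all genes passed. At an unadjusted p under 0.05 (limma) there were 4, against 3061 of all 18253 genes.

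Of 25 transcription factors, kinases and brakes of these pathways, 2 were lower and 8 higher with the mimic in control cells, against 11% and 11.6% of all genes. CEBPB, a C/EBP factor of the acute phase, rose by 0.97 (adjusted p = 0.00554 by limma) on 1 probe, STAT3 by 0.84 (adjusted p = 2.4e-04) and CEBPG, another C/EBP protein, by 0.70 (adjusted p = 0.00434). Of the NF-κB subunits RELA (0.53, adjusted p = 8.5e-04), RELB (0.51, adjusted p = 0.0109) and NFKB2 (0.36, adjusted p = 0.00852) rose, as did SOCS1, a feedback inhibitor of JAK kinases (0.45, adjusted p = 0.00258), and TYK2, a JAK kinase (0.25, adjusted p = 0.0249). NFKBIZ, an inducible nuclear partner of NF-κB, fell by 0.59 (adjusted p = 0.00166) and JAK1, a kinase of cytokine receptors, by 0.33 (adjusted p = 0.0116). In silenced cells STAT3 (0.89, adjusted p = 0.00157) and SOCS1 (0.31, adjusted p = 0.0375) rose. Silencing alone changed none of the 25 past the test, where 1.69% of all genes passed as lower and 0.888% as higher. At an unadjusted p under 0.05 (limma) there were 4, against 3466 of all 18253 genes. In mimic cells silencing went with more NFKBIZ (0.44, adjusted p = 0.0288 by limma).

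Receptors and carriers of the protein changed in part. Of 10 receptors 7 were measured, and in control cells 1 was lower and 1 higher, as were 1 and 1 of the lipoprotein genes, where 11% and 11.6% of all genes passed. TLR2, a Toll-like receptor that binds serum amyloid A, fell by 0.44 (adjusted p = 0.00394 by limma) and TLR4 rose by 0.37 (adjusted p = 0.0116). In silenced cells TLR4 rose by 0.45 (adjusted p = 0.0199). FPR2, the formyl peptide receptor best known for binding the protein, was not above background on all 3 arrays of any group. Of 15 genes of high-density lipoprotein 14 were measured. ABCA1, which exports cholesterol to apolipoproteins, fell by 1.03 (SE 0.14, adjusted p = 0.00129) in control cells and by 0.56 (adjusted p = 0.0478) in silenced cells, and was higher by 0.61 (adjusted p = 0.0460) after silencing in mimic cells. LIPG, endothelial lipase, rose by 0.49 (adjusted p = 0.00132) in control cells. No gene of either list passed after silencing alone, where 1.69% of all genes passed as lower and 0.888% as higher. At an unadjusted p under 0.05 (limma) there were 1 of 7 receptors and 1 of 14 lipoprotein genes, against 3466 of all 18253 genes.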

How the data were processed

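Cy3-labelled RNA was hybridized by the authors to 12 exon arrays on 6 slides, with groups and replicates as the labels give them. The authors deposited the Feature Extraction 10.7.3.1 intensity of each spot, corrected for background within the array, and a log2 table of 217027 probes, also quantile normalized, whose column medians run from 7.04 to 7.06 and which follows the background-subtracted intensity of its own arrays. It holds 9 of the 11 SAA probes and was used as an alternative.

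From the processed intensity, outlier spots (304 to 462 an array) were left out, values under 1 (none) were set to 1, and signals were quantile normalized and log2 transformed. Probes called well above background by Feature Extraction on every array of some group were kept (154001 of 233164). Probes were assigned to genes through RefSeq accessions without versions (209671 of 233164 probes), with symbols from GRCh38.p14, and a gene's value was the mean over its kept probes. The 18253 genes, and separately 153960 probes, were fitted with limma 3.58.1 (lmFit, eBayes) in R 4.3.3, blocked by replicate number, with Benjamini-Hochberg adjustment over all genes or probes. A gene passed at an adjusted two-sided p under 0.05. The block follows the numbers in the labels and the paired test of the methods. Deviations from group means correlated from 0.15 to 0.58 between arrays of the same number and from -0.50 to 0.20 between arrays of different numbers.

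The fit was tested on simulated data. The alternatives were 75th percentile scaling, normexp with an offset of 50 on the median spot intensity, the authors' table, no filter or a stricter filter on dim probes, outlier spots kept, the median over probes, no block, the slide as a random block, only the arrays compared, an intensity trend, the methods' t-test, and leaving out replicates or arrays. The precision is limited by 3 arrays a group, and no read depth applies.

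The members and gene lists were chosen with earlier results of these data known. Genes named are the members, AGO2, the 3 genes most correlated with each member, and of each list the members that passed, at most 3 per comparison by size. Beyond that rule, after their values were seen, all genes of the neighbour, acute phase, cytokine and factor lists that passed for the mimic in control cells are named. So are the markers that moved, the neighbours SAAL1, SERGEF, TPH1 and LDHAL6A, the receptor FPR2, and SAA3P as a member of the family. Lists are described by counts, and no enrichment was tested. Probe positions and transcript sequences were not used here.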

Additional observations from a re-analysis of the deposited data

Results flagged for a closer look

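Of 49 genes looked at, which were the members, AGO2, SAA3P, the genes most correlated with the members and the genes of the lists that passed in any comparison, 2 stood out because the mimic moved them one way in all 3 pairs of control cells and the other way in all 3 pairs of silenced cells. For AGO2, the targeted gene, the pairs differed by 0.23, 0.22 and 0.38 in control cells and by -0.08, -0.10 and -0.01 in silenced cells, and the difference between the arms was -0.34 (adjusted p = 0.181 by limma, which did not pass). For IL22RA1, a subunit of the interleukin-22 receptor measured by 2 probes, the pairs differed by -0.32, -0.13 and -0.16 in control cells and by 0.22, 0.58 and 0.39 in silenced cells, and the difference between the arms was 0.60 (adjusted p = 0.0830 by limma, which did not pass). Of the 7 IL22RA1 probes 2 were kept, and 1 was well above background on all 12 arrays. The share of all genes with such a turn was not counted, so 2 of 49 cannot be set against what is usual on this array. None of the serum amyloid A genes changed direction between the arms in this way. Groups of 3 arrays are too small for a check of single outlying arrays, so none was made.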

How the results depend on the processing

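Over the members, 500 values counted as unchanged, 30 lost a call, 11 gained one and 5 turned in sign. A further 5, all of SAA2-SAA4, moved by more than the spread between replicates. For SAA1, SAA2 and SAA4 unchanged means the same direction and side of the threshold. SAA2-SAA4 was not tested, so for it unchanged means a move within that spread. Its unchanged values numbered 26 to 28 in each comparison. Its differences cannot move with no filter, the median over its 2 probes, no block, the slide as a random block or an intensity trend. Nor can they with only the arrays compared or the methods' t-test. For all of these the label was fixed beforehand. The unchanged values of SAA2-SAA4, which count among the 500, are thus in part no check of stability. Where a call or direction changed, the cause was not tested. With normexp the differences of SAA2-SAA4 were -1.13 (control cells), -0.39 (silenced cells), 0.62 (silencing with the mimic) and 0.74 (between the arms), and SAA2 passed after silencing alone at 0.43. In the authors' table SAA2 passed there at 0.55 and SAA4 turned to 0.022. With probes above background on every array, which left no probe of SAA4, SAA2-SAA4 stood at -0.83 in silenced cells and SAA2 passed after silencing alone (0.52) and between the arms (0.76). With the median over probes SAA1 passed after silencing alone at 0.59. Without the replicate block, as with the slide as a random block, SAA4 no longer passed in silenced cells (-0.52) or for silencing with the mimic (0.73), with differences that these fits leave as they were. With only the arrays compared SAA4 lost the same -0.52 and 0.73, and SAA1 (1.40) and SAA2 (1.45) lost the call for silencing with the mimic. The intensity trend brought SAA2 past the threshold between the arms (1.02). The methods' t-test after adjustment passed none of the mimic's falls in control cells (-1.27, -1.30 and -1.26 for SAA1, SAA2 and SAA4), nor -0.52, 1.40, 1.45 and 0.73, and before adjustment it passed SAA1 in silenced cells (-0.38) and after silencing alone (0.51) and SAA2 between the arms (1.02).

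Leaving out replicates or arrays, SAA1 ran from -0.46 to -0.28 in silenced cells, from 0.43 to 0.63 after silencing alone and from 1.18 to 1.59 for silencing with the mimic. SAA2 ran from 1.31 to 1.69 for silencing with the mimic. SAA4 ran from -0.55 to -0.46 in silenced cells and from 0.65 to 0.87 for silencing with the mimic, and after silencing alone from -0.070 to 0.018, its sign turning without replicate 1 (0.0085) or 3 (0.0075) and without cntrl replicate 1 (0.018) or 3 (0.017). Of the 9 probes of SAA1, SAA2 and SAA4, the 1 that passed in silenced cells became 2 with 75th percentile scaling, normexp or the authors' table and 0 without the block. For silencing with the mimic, 8 became 4 without the block. Leaving out replicates gave 3 to 9 in control cells, and 0 to 0 in silenced cells and for silencing with the mimic. Over all genes, the alternatives gave 0 to 4954 calls in control cells, 0 to 2601 in silenced cells, 0 to 3187 and 0 to 2216 for silencing without and with the mimic and 0 to 1888 between the arms, the highest from the stricter filter in control cells and from the unadjusted t-test elsewhere. Assignment by a gene name column was not run, and for the difference between the arms all arrays already enter the fit. With 3 arrays a group and at least 1 probe of each member near background on some mimic145 arrays, the sizes of the differences are uncertain, and the stricter filter gave -1.04 for SAA1 in control cells.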
